A study of Mus musculus with 14 samples.

Results

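The insulin-like growth factor (IGF) family is described here through 10 mouse genes chosen by symbol: the ligands Igf1 and Igf2, the receptors Igf1r and Igf2r, and the binding proteins Igfbp2, Igfbp3, Igfbp4, Igfbp5, Igfbp6 and Igfbp7. All 10 were found among the 55433 genes of the RNA table and among the 22470 gene bodies of the chromatin table. The RNA difference of Igfbp2 between the conditions was known when these genes were chosen, so the RNA differences of the 10 genes are given as a description, without p-values. The samples were tumor-derived mouse cells (strain C57BL/6, passages 6 to 8) given either a control guide RNA (sgControl) or one against NSD3 (sgNSD3), a methyltransferase for lysine 36 of histone H3. Each condition had 3 RNA libraries, and chromatin was profiled in 4 samples for dimethylation of H3 lysine 36 (H3K36me2), 2 for trimethylation of H3 lysine 27 (H3K27me3) and 2 for IgG. The labels name neither the tumor type nor a clone, and do not state if replicate RNA libraries derive from different cultures, so their spread, and any p-value, may be technical only.

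IGF1 and IGF2 are secreted peptides that act through IGF1R, a receptor tyrosine kinase which signals through IRS and SHC adaptors to the PI3K and RAS pathways. IGF2R, the mannose 6-phosphate receptor, takes up IGF2 for degradation and sorts lysosomal enzymes. The binding proteins hold the ligands outside the cell, prolong or block their action, and are cut by proteases that release the ligand. Mesenchymal cells are a common source of IGF1, IGF2 and several binding proteins.

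Recovered totals were 20294828 to 21863833 counts per RNA library. Nsd3 itself was higher in the libraries labelled sgNSD3, at 21990, 22010 and 21840 normalized counts (counts divided by the size factor of the library) against 14570, 14400 and 14670 in sgControl. The RNA level cannot tell if the guide disrupted the protein, so conditions are named by the labels of their libraries. A chi-square of read counts between libraries, divided by its degrees of freedom, was 6.62 and 9.95 between sgControl replicate 1 and its fellow replicates and 2.9 between those, against 1.33 to 1.45 among sgNSD3 libraries. So sgControl replicate 1 stood apart from the other sgControl libraries. Between libraries of different conditions the value was 7.39 to 8.32, below the 9.95 between sgControl replicates 1 and 3. Of 8 fibroblast or mesenchyme markers 7 passed the filter on low values and summed to 711900 to 812600 normalized counts in sgControl and 780800 to 787400 in sgNSD3, mostly Col1a1 and Col1a2. Of these markers Col1a1, Pdgfrb and Thy1 were called higher in sgNSD3 (1.13-fold, 1.13-fold and 1.54-fold) and Pdgfra lower (from 2339 to 2134). Among all tested genes 5.44% were called higher and 6.44% lower. The sums were 4056 to 4566 and 2935 to 2952 for 6 simple epithelium markers, mostly Krt19, with Epcam at 0, and 202.9 to 261.1 and 134.3 to 159.3 for 5 squamous or basal markers, with Dsg3 at 0. They were 122.8 to 147.4 and 197.4 to 238.8 for 5 endothelial markers, mostly Kdr, with Cdh5 at a mean of 0.319 in sgControl. The 6 immune markers summed to 89.83 to 106.2 and 72.87 to 81.14, with Adgre1 and Cd3e at 0. Of the epithelial markers Krt19, Krt18 and Krt14 were called lower in sgNSD3 (1.46-fold, 1.3-fold and 1.59-fold). Of the endothelial markers Kdr was called higher (1.66-fold), and no immune marker was called. The part of these differences in the values below was not tested. In bulk RNA, fewer cells of a type and less RNA per cell cannot be told apart.

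The promoters of Igfbp2, Igfbp3, Igfbp4 and Igfbp6 are shown because the RNA of these 4 binding proteins was higher together in the libraries labelled sgNSD3. Each line is the 250 bases before an annotated start (RefSeq, GRCm38.p6, which UCSC names mm10), read 5′ to 3′ on the strand of the gene. Capitals mark matches on either strand to 5 short motifs: the GC box GGGCGG, the TATA box TATAAA, the CCAAT box CCAAT, the E-box CACGTG and the AP-1 site TGANTCA.
Igfbp2: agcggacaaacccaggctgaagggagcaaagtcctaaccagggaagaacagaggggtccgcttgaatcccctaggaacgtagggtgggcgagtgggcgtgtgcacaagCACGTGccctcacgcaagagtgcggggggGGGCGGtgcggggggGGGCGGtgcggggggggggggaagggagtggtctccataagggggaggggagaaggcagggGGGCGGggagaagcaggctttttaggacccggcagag
Igfbp3: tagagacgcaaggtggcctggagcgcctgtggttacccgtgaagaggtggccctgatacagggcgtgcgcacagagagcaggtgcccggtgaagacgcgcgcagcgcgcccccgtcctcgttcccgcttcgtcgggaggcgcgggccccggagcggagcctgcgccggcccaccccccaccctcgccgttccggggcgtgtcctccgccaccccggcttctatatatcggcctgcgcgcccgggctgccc
Igfbp4: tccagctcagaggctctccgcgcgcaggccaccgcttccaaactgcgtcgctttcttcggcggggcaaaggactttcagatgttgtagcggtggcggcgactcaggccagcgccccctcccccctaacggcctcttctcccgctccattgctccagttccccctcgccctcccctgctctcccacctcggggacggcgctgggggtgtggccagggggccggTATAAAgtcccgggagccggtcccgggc
Igfbp6: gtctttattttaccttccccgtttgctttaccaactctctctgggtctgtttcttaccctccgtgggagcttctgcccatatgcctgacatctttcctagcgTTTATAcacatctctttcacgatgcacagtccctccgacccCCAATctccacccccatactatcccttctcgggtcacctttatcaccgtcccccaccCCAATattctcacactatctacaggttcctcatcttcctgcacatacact

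These windows were chr1:72824230-72824479 (plus strand), chr11:7213924-7214173 (minus strand), chr11:99040994-99041243 (plus strand) and chr15:102143936-102144185 (plus strand). Igfbp2 has 2 annotated starts, and the upstream one is shown. The windows of Igfbp3 and Igfbp4 lie inside the annotated gene spans, which extend further upstream. The Igfbp2 window held 3 GC boxes and 1 E-box. The window of its other start held neither motif but 1 AP-1 site. Chosen genes whose RNA was tested and not called had such motifs too. Igf2r had 3 GC boxes and 2 E-boxes, Igfbp7 had 4 GC boxes and no E-box, and Igf1r had 2 GC boxes and no E-box. Of 32851 promoter windows of the same length, 32.7% held a GC box, 8.47% held at least 3, and 6.02% held an E-box. The Igfbp4 window held 1 TATA box, found in 12.4% of all windows. The Igfbp6 window held 1 TATA box and 2 CCAAT boxes, and 10.1% of all windows had at least 2 of the latter. None of the 5 motifs was matched in the Igfbp3 window, where the AP-1 site had a background of 6.75%. Other forms of a motif were not searched, so the stretch tatata near the end of this window was not counted. The share of G and C was 67.2%, 73.2% and 69.2% for Igfbp2, Igfbp3 and Igfbp4, and 49.6% for Igfbp6. None of the 5 motifs was thus found in all 4 windows. The TATA box was matched in both the Igfbp4 and the Igfbp6 window, in the latter on the strand opposite to the gene. A match describes letters only, and binding was not measured.

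Among the 10 genes, 9 passed the filter of a mean of at least 8 normalized counts, and Igfbp5 did not. Igf2 passed only through the libraries labelled sgNSD3, as its sgControl mean was 6.71. In the limma fit over all 18263 tested genes, 5 of the 9 were called higher in the libraries labelled sgNSD3 (Igf2, Igfbp2, Igfbp3, Igfbp4 and Igfbp6), where 5.44% of all tested genes were. The call was lower for 1, Igf1, where 6.44% of all tested genes were. In either direction 6 were called, against 11.9% of all tested genes. Igf1r, Igf2r and Igfbp7 were not called. The conditions did not overlap for 7 of the 9, against 28.5% of all tested genes. Because these genes were chosen with this comparison known, nothing is read from those counts. Normalized counts are not divided by transcript length, so levels are compared within a gene and not between genes.

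**Figure D1:**
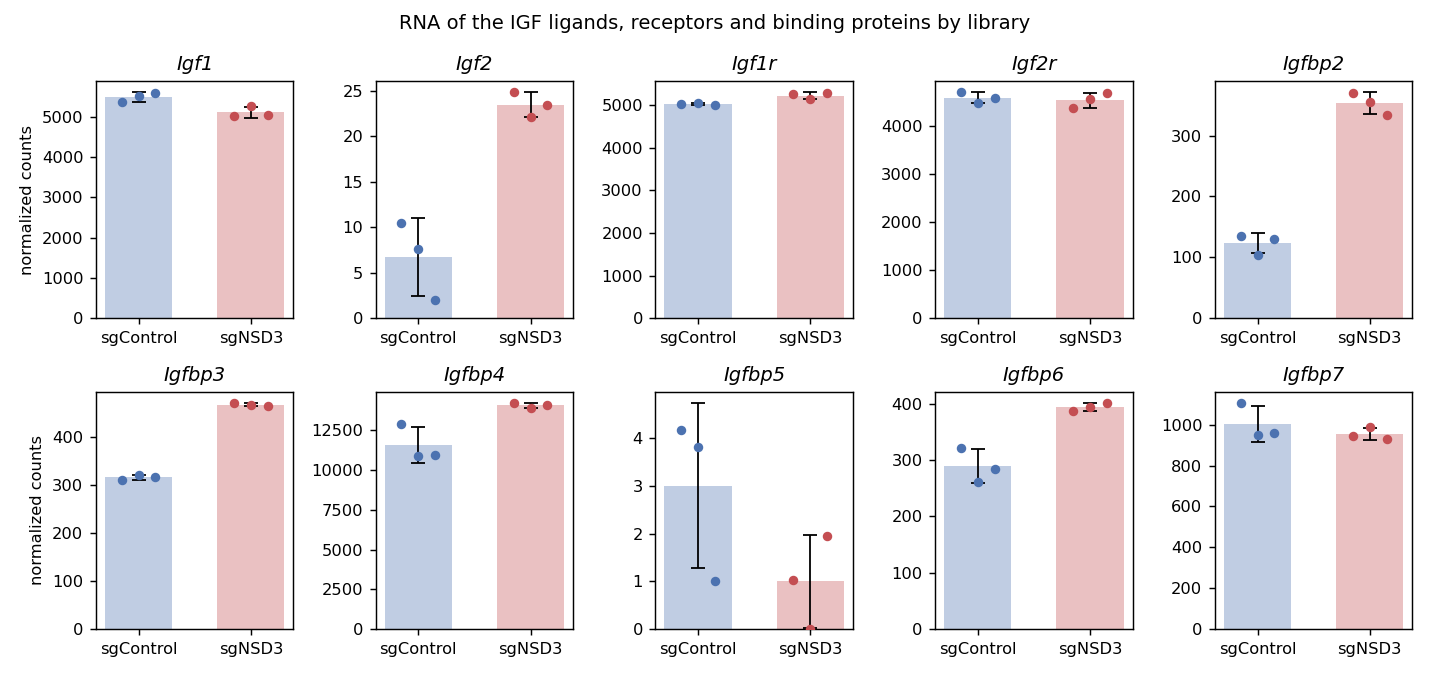
Normalized counts (linear axis from 0, own scale per gene) of the 10 genes in 3 sgControl and 3 sgNSD3 libraries. Points are libraries, bars are means and error bars are SD. The points of the conditions are separate for Igf1, Igf2, Igf1r, Igfbp2, Igfbp3, Igfbp4 and Igfbp6, and overlap for Igf2r, Igfbp5 and Igfbp7.

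Of the ligands, Igf1 was slightly lower and Igf2 was higher from a very low level. Igf1 (chromosome 10, 87858265 to 87937047), the main growth-promoting ligand after birth, had 5354, 5504 and 5595 normalized counts in the sgControl libraries (replicates 1 to 3) against 5027, 5270 and 5045 in those labelled sgNSD3. The highest sgNSD3 library was just under the lowest sgControl library. The means were 5485 ± 122 and 5114 ± 135 (SD, n = 3 each), a 1.07-fold lower level and a log2 fold of -0.10 ± 0.031 (SE). Of the 6 calls among the 10 genes it was the only one that leaving out 1 library could remove. It went without replicate 2 or 3 of sgControl and without replicate 1 or 3 of sgNSD3, where the difference on the deposited log2 scale was -0.0875, -0.0769, -0.079 and -0.0813, against -0.09 with all libraries.

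Igf2 (chromosome 7, 142650768 to 142666816), the imprinted ligand of fetal growth, was counted with 10, 8 and 2 reads in the sgControl libraries (replicates 1 to 3) against 24, 23 and 24 in those labelled sgNSD3. The conditions did not overlap, but the sgControl libraries differed among themselves with an SD of 63.9% of their mean, against 38.6% from counting error. The normalized means were 6.71 ± 4.29 and 23.44 ± 1.37 (SD, n = 3 each), a ratio of 3.49, and the log2 fold was 1.87 ± 0.39 (SE). Leaving out 1 library at a time gave folds of 2.59 to 4.84, the highest without sgControl replicate 1 and the lowest without sgControl replicate 3. The sgControl mean was under the filter of 8, so Igf2 entered the fit through the condition in which it was high.

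Genes around Igf2 were also near the bottom of the scale. Igf2os, an antisense RNA that overlaps Igf2, had 3.134, 2.871 and 5.075 normalized counts in sgControl against 13.43, 6.712 and 8.798 in those labelled sgNSD3, which also did not overlap. The sources used here do not say if counting was by strand, so reads of Igf2 and Igf2os cannot be told apart. H19, the maternally expressed RNA of the same imprinted domain, had a mean of 1.191 normalized counts over all libraries. Ins2, an insulin gene 11840 bases from Igf2, had 0.9803. Igf1os, an antisense RNA named for Igf1, had means of 3.944 ± 2.43 and 4.888 ± 2.5 (SD, n = 3 each), with overlapping conditions.

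The receptors differed little between the conditions. Igf1r (chromosome 7, 67952257 to 68233668), which carries the growth signal, had 5016, 5056 and 4997 normalized counts in sgControl against 5259, 5135 and 5276 in those labelled sgNSD3. All 3 sgNSD3 libraries were above the sgControl libraries, with means of 5023 ± 30.2 and 5223 ± 77.2 (SD, n = 3 each). The 1.04-fold difference (log2 fold 0.06 ± 0.029, SE) was not called, though it was called under quantile normalization, at 0.0759 on the log2 scale. Igf2r (chromosome 17, 12682406 to 12769706) had 4689, 4477 and 4577 normalized counts in sgControl against 4363, 4547 and 4672 in those labelled sgNSD3, with overlapping conditions and a log2 fold of -0.02 ± 0.033 (SE). Airn, the imprinted RNA transcribed antisense to Igf2r, was present at 401 ± 50 and 428.6 ± 21.5 normalized counts (SD, n = 3 each) and was not called. Its reads and those of Igf2r cannot be told apart by strand where the genes overlap.

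Igfbp2 showed the largest difference among the binding proteins that passed the filter. Igfbp2 (chromosome 1, 72824480 to 72852474) encodes a carrier with a preference for IGF2. It had 135.8, 104.3 and 129.9 normalized counts in the sgControl libraries (replicates 1 to 3) against 370, 354.8 and 334.3 in those labelled sgNSD3. All 3 libraries labelled sgNSD3 were far above the highest sgControl library. The means were 123.3 ± 16.7 and 353 ± 17.9 (SD, n = 3 each), with a log2 fold of 1.52 ± 0.098 (SE). The fold of 2.86 stayed between 2.66 and 3.01 when any 1 library was left out, the highest without sgControl replicate 1. By fold, Igfbp2 ranked 7 among 899 genes called higher with a mean of at least 32 normalized counts. Its difference was known when the genes were chosen, so the rank is a description.

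Igfbp3, Igfbp4 and Igfbp6 were higher by smaller factors. Igfbp3 (chromosome 11, 7206086 to 7215498), the main carrier of IGFs in serum, had 310.2, 319.6 and 316.7 normalized counts in sgControl against 470.2, 466 and 463.4 in those labelled sgNSD3. Both conditions were tight, at 315.5 ± 4.8 and 466.5 ± 3.46 (SD, n = 3 each). These SDs were 1.52% and 0.741% of the means, where counting error alone gives 5.63% and 4.63% on average. The difference was 1.48-fold, with a log2 fold of 0.56 ± 0.064 (SE).

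Igfbp6 (chromosome 15, 102144186 to 102149512), which binds IGF2 in preference to IGF1, had 321.7, 261.2 and 284.2 normalized counts in sgControl against 386.5, 395 and 400.8 in those labelled sgNSD3. The means of 289 ± 30.5 and 394.1 ± 7.19 (SD, n = 3 each) differed 1.36-fold, with a log2 fold of 0.45 ± 0.076 (SE). The sgControl libraries were again the more scattered ones, and without sgControl replicate 1 the difference was 1.45-fold.

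Igfbp4 (chromosome 11, 99040005 to 99052655), an inhibitor of IGF action that the protease PAPP-A cuts, had 12920, 10920 and 10950 normalized counts in sgControl against 14230, 13940 and 14080 in those labelled sgNSD3. Every sgNSD3 library was above every sgControl library, with sgControl replicate 1 standing between its fellow replicates and the sgNSD3 libraries. The means were 11600 ± 1140 and 14080 ± 149 (SD, n = 3 each), a ratio of 1.21, and the log2 fold was 0.29 ± 0.042 (SE). Without sgControl replicate 1 the difference was 1.29-fold.

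Igfbp7 and Igfbp5 gave no call. Igfbp7 (chromosome 5, 77349240 to 77408045), a secreted relative with low affinity for IGFs, had 1107, 948.3 and 960.1 normalized counts in sgControl against 946.6, 987.6 and 930.6 in those labelled sgNSD3. Only sgControl replicate 1 was above all sgNSD3 libraries, and the log2 fold was -0.07 ± 0.054 (SE). On the deposited log2 scale the difference was -0.046 with all libraries and 0.000541 without that replicate. Igfbp5 (chromosome 1, 72858065 to 72874865), a binding protein that attaches to matrix, was counted with 4, 4 and 1 reads in sgControl against 1, 0 and 2 in those labelled sgNSD3, and no difference was detectable at this depth. Igfbp5 is the nearest protein-coding neighbour of Igfbp2, with 5591 bases between the annotated ends of the genes. Igfbp1, the remaining member of the classical binding protein family, had means of 6.651 ± 1.8 and 8.196 ± 3.98 normalized counts (SD, n = 3 each) and did not pass the filter.

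Within sgControl, 7 of the 10 genes had their highest value in replicate 1 (Igf2, Igf2r, Igfbp2, Igfbp4, Igfbp5, Igfbp6 and Igfbp7), as did 35.3% of all tested genes, and the count was not tested. For Igfbp5 it rests on 4 reads each in replicates 1 and 2. The SD of Igfbp4 was 9.87% of its mean in sgControl, against 0.929% from counting error, and 1.06% in the libraries labelled sgNSD3, against 0.843%. Without sgControl replicate 1, the ratio of sgNSD3 to sgControl means was 4.84 for Igf2, 3.01 for Igfbp2, 1.47 for Igfbp3, 1.29 for Igfbp4 and 1.45 for Igfbp6. It was 0.921 for Igf1, 1.04 for Igf1r, 1 for Igf2r, 0.411 for Igfbp5 and 1 for Igfbp7. Beside this, the ribosomal RNA locus transcript Gm26917 took 8.7% of counts in sgControl replicate 1, 6.81% and 6.65% in replicates 2 and 3, and 7.66% to 7.81% in the libraries labelled sgNSD3. Its part in these values was not tested.

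The genes whose RNA followed that of Igfbp2 most closely were Stag3, Rassf2, Fndc1, Svep1 and Epha3. Likeness was the root mean square distance between profiles of log2(normalized count + 1), each centred on its own mean over the 6 libraries. Of 14084 genes with a mean of at least 32 normalized counts, 11558 were compared, with predicted and similar symbols left out. The distance was 0.101 for Stag3, a meiotic cohesin subunit, which went from a mean of 25.57 to 66.27 normalized counts. It was 0.129 for Rassf2, a RAS-association domain protein (124.3 to 345.1), and 0.148 for Fndc1, a protein with fibronectin type III domains (50.55 to 133.3). Svep1, a secreted adhesion protein (134.5 to 385.8), and Epha3, an ephrin receptor (21.75 to 59.73), followed at 0.153 and 0.156. These genes were selected by this likeness, so their folds of 2.59 to 2.87 are a description.

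**Figure D2:**
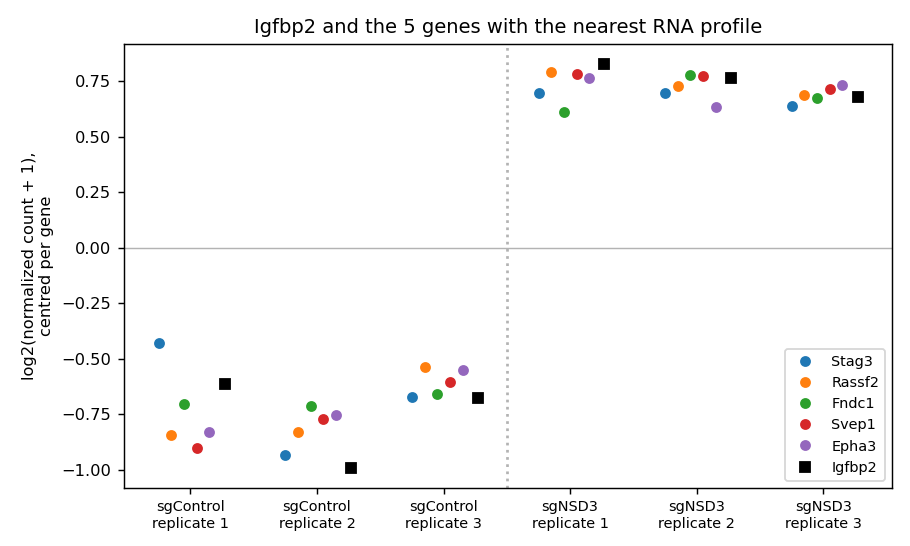
Centred log2(normalized count + 1) of Igfbp2 (black squares) and the 5 genes with the nearest profile (coloured points) in each of the 6 RNA libraries, spread sideways for legibility. All 6 genes lie below 0 in the sgControl libraries and above 0 in the libraries labelled sgNSD3.

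Of 50 other genes of the axis, all in the table, 40 passed the filter, 3 rose and 7 fell (limma, adjusted p threshold 0.05), beside 5.44% and 6.44% of all tested genes. The falls numbered 3, 4 and 4 without sgNSD3 replicate 1, 2 and 3. The median log2 fold of the 40 was -0.01, against 0 for all tested genes, and the median size without sign was 0.09 against 0.11. The list was written with earlier results of these data known, and its called genes are named below because of their calls. Their adjusted p-values are therefore given as a description. Without sgControl replicate 1, the differences of Htra1, Grb14, Igf2bp1 and Shc1 on the deposited log2 scale were 0.34, 0.371, -0.159 and -0.144, and each was still called. That scale compresses changes of genes with low counts, and the log2 fold of Grb14 with all libraries was 1.12.

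**Figure D3:**
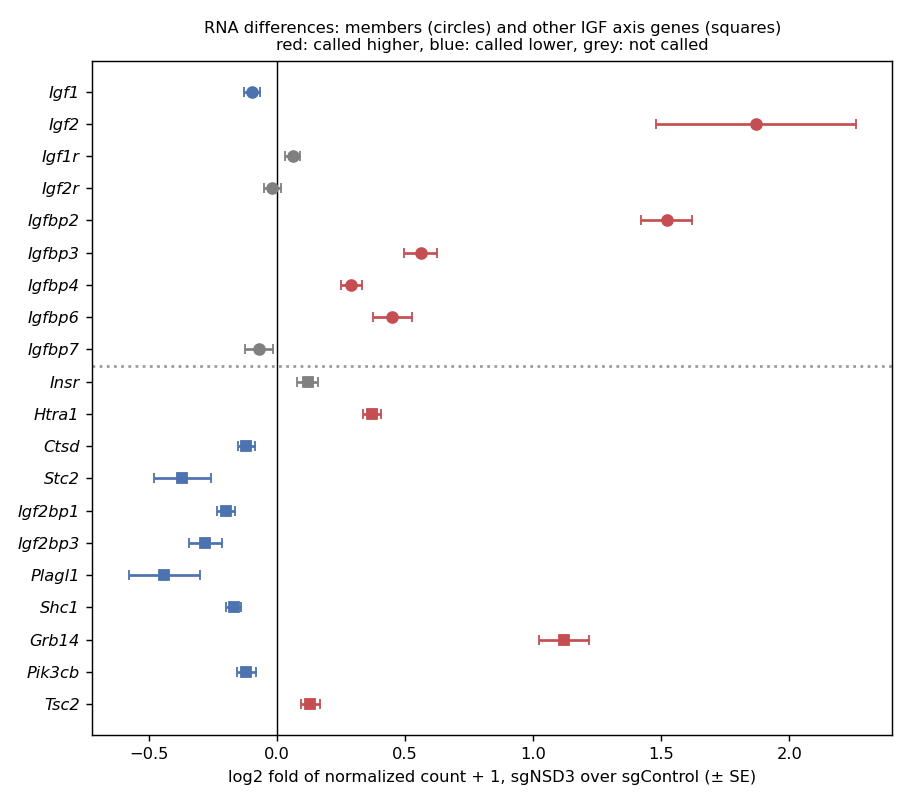
Log2 fold of normalized count + 1, sgNSD3 over sgControl, with its SE from limma, for the 9 members that passed the filter (circles) and 11 named genes of the IGF axis (squares). Red marks called higher, blue called lower and grey not called. Igf2, Igfbp2 and Grb14 lie above a log2 fold of 1, and the genes called lower lie within -0.44 of 0.

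Among genes that act on binding proteins, 1 rose and 2 fell of 6 that passed the filter, beside 5.44% and 6.44% of all tested genes. Htra1, a secreted serine protease that can degrade binding proteins, had 3117, 2969 and 2889 normalized counts in sgControl against 3916, 3832 and 3885 in those labelled sgNSD3, and rose 1.3-fold (limma adjusted p = 1.19e-08). Stc2, stanniocalcin, a secreted inhibitor of PAPP-A, fell 1.29-fold, with means of 164.8 ± 8.1 and 127.9 ± 11.5 normalized counts (limma adjusted p = 0.0259, SD over 3 libraries). Ctsd, a lysosomal protease sorted by mannose 6-phosphate receptors, fell 1.08-fold (limma adjusted p = 0.0198). Stc2 lost its call when sgControl replicate 1, sgControl replicate 2 or sgNSD3 replicate 1 was left out (limma adjusted p = 0.0747, 0.0605 and 0.153). Ctsd lost its call when sgControl replicate 1 or any sgNSD3 replicate, 1, 2 or 3, was left out (limma adjusted p = 0.0547, 0.093, 0.0903 and 0.0627). Pappa, which encodes PAPP-A and is named here after its values were seen, had 3.683 ± 2.12 and 10.85 ± 1.72 normalized counts (SD, n = 3 each) and did not pass the filter.

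Of 5 tested regulators of Igf2 RNA or its locus, 3 fell, beside 6.44% of all tested genes, and Igf2bp2 and Lin28b were not called. They come from a list written with earlier results known, so nothing is read from this count. Igf2bp1 and Igf2bp3 encode RNA-binding proteins that bind Igf2 mRNA. Igf2bp1 had 2110, 2151 and 2165 normalized counts in sgControl against 1859, 1844 and 1904 in those labelled sgNSD3, a 1.15-fold fall (limma adjusted p = 0.000369). Igf2bp3 had 491.8 ± 11.8 against 407 ± 32.4 normalized counts, a 1.21-fold fall (SD over 3 libraries, limma adjusted p = 0.00644). Plagl1, an imprinted zinc finger factor, fell 1.36-fold (limma adjusted p = 0.0442). The call of Igf2bp3 was lost without sgNSD3 replicate 3 (limma adjusted p = 0.0731). Plagl1 lost its call when replicate 1 or 2 of sgControl, or 1 or 2 of sgNSD3, was left out (limma adjusted p = 0.17, 0.0816, 0.219 and 0.112).

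Inside the cell, Grb14 had the largest difference of the tested axis genes that were called. Grb14, an adaptor that inhibits the insulin receptor, had 113.9, 118.7 and 105.6 normalized counts in sgControl against 249.1, 234.9 and 254.2 in those labelled sgNSD3, and rose 2.18-fold (limma adjusted p = 9.77e-09). Shc1, the adaptor toward RAS, had 5162 ± 75 against 4596 ± 45.6 normalized counts, a 1.12-fold fall (SD over 3 libraries, limma adjusted p = 0.000269). These were the 2 called of 8 tested adaptors, beside 11.9% of all tested genes in either direction. Insr, the insulin receptor, had 1261 ± 33.1 and 1369 ± 15.5 normalized counts (SD, n = 3 each) and was not called (limma adjusted p = 0.0582).

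Of 15 genes of PI3K, AKT and mTOR, Tsc2, an inhibitor of mTOR complex signalling, rose 1.1-fold (limma adjusted p = 0.0132) and Pik3cb, a catalytic subunit of PI3K, fell 1.09-fold (limma adjusted p = 0.0189). Among all tested genes 5.44% rose and 6.44% fell. The call of Tsc2 was lost without sgNSD3 replicate 2 or 3 (limma adjusted p = 0.0669 and 0.0845). That of Pik3cb was lost without sgNSD3 replicate 1, 2 or 3 (limma adjusted p = 0.055, 0.0902 and 0.087). The FOXO factors Foxo1, Foxo3 and Foxo4, which AKT keeps out of the nucleus, were not called (limma adjusted p = 0.399, 0.703 and 0.602).

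The chromatin table gives 1 signed score per gene body for H3K27me3 and 2 for H3K36me2. Its header does not name the libraries behind a score or the direction of a comparison, so the scores are the authors' values without an SD, and whether they hold a change between the conditions cannot be read from them. In the authors' deposited table all 10 gene bodies were above 0 in both H3K36me2 columns, as were 89.4% and 92.4% of all gene bodies. For H3K27me3 the authors' deposited table placed 4 of the 10 above 0, against 31.5% of all.

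All 6 chosen binding proteins were above the median of all gene bodies in both H3K36me2 columns of the authors' deposited table, 0.0757 and 0.125. The share of all gene bodies above both medians was not computed, so nothing is read from this count. Among the 12615 gene bodies with tested RNA, Igfbp4 was at percentile 49.3 in the first column, below their median. Igfbp1, which was not among the chosen genes, was below both medians in the authors' deposited table, at 0.000754 and 0.0454 (percentiles 12.3 and 17.1). In the authors' deposited table Igfbp2 had 0.116 and 0.278, at percentiles 76.2 and 93.4 of all gene bodies in the respective columns. Igfbp3 had 0.307 and 0.173 in the authors' deposited table (percentiles 99.7 and 71.6), and Igfbp6 0.0777 and 0.319 (percentiles 56.1 and 96.6). So the highest value of the family belonged to Igfbp3 in the first column and to Igfbp6 in the second. Igfbp4 had 0.0773 and 0.222 in the authors' deposited table (percentiles 54.2 and 84.7), Igfbp5 0.116 and 0.244 (76.9 and 89.2), and Igfbp7 0.0898 and 0.155 (59 and 64). Igfbp5, with hardly any RNA, thus had H3K36me2 scores close to those of its neighbour Igfbp2.

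The ligands and receptors had other combinations. Igf1 had H3K36me2 scores of 0.167 and 0.122 in the authors' deposited table (percentiles 92.2 and 49.7). Igf2 was low in both columns of the authors' deposited table, at 0.0516 and 0.0244 (percentiles 35.4 and 12.1). Igf1r and Igf2r were at percentiles 27.3 and 16.5 in the first column of the authors' deposited table and at 68 and 53.2 in the second. Their order among the 10 genes therefore changed with the column.

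For H3K27me3 the authors' deposited table placed Igfbp2 lowest of the 10 genes, at -0.203 (percentile 2.2), followed by Igfbp3 at -0.115 (percentile 8.7) and Igfbp6 at -0.0695 (percentile 20.6). At the other end of the authors' deposited table were Igfbp5 at 0.0754, Igf2 at 0.0597 and Igf2r at 0.0556, at percentiles 87.4, 85 and 84. Igf1r followed at 0.0169 in the authors' deposited table, Igfbp4 at -0.0198, Igfbp7 at -0.0467 and Igf1 at -0.0476. Igfbp1, outside the 10 genes, had -0.148 in the authors' deposited table (percentile 5.1). The neighbours Igfbp2 and Igfbp5 thus lay at opposite ends of the family for H3K27me3 and near each other for H3K36me2.

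**Figure D4:**
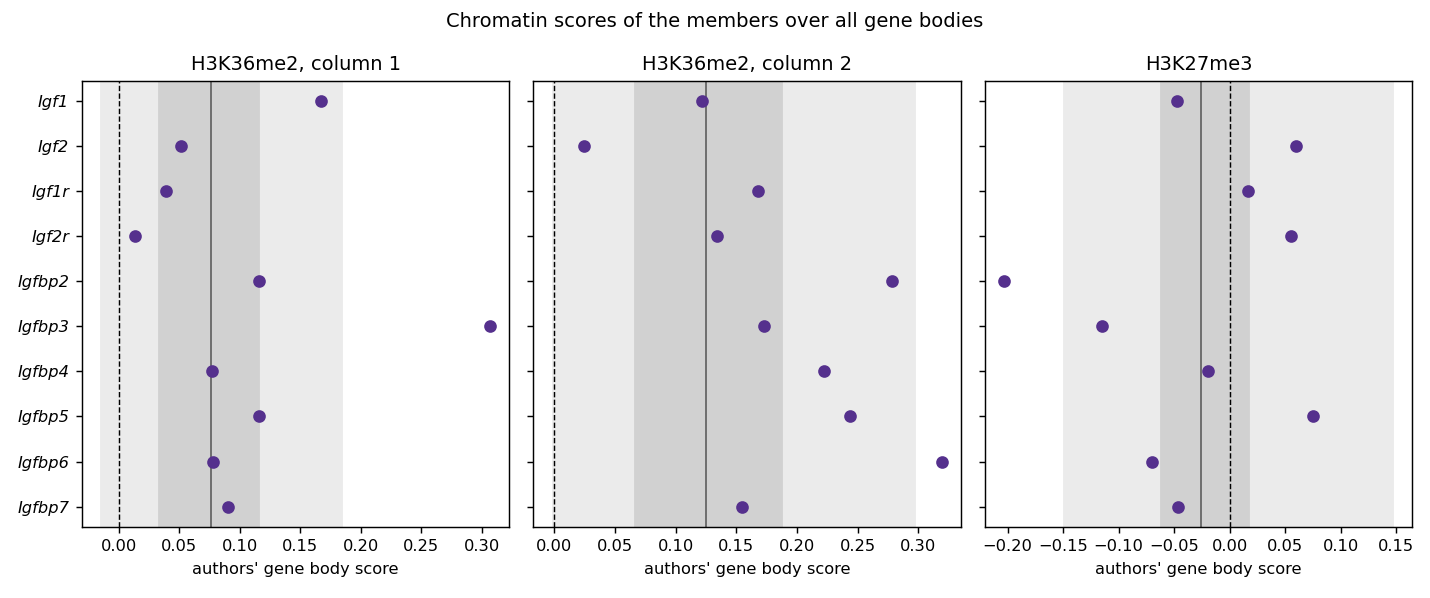
Scores of the 10 gene bodies (points) in the authors' deposited table, with 1 panel per column and its own linear axis. The light and dark bands hold the middle of all 22470 gene bodies (5th to 95th and 25th to 75th percentile), the solid line is their median and the dashed line is 0. Igfbp2 lies left of the light band for H3K27me3, Igfbp3 right of it in the first H3K36me2 column and Igfbp6 in the second.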

How the data were processed

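RNA values were deposited by the authors on a log2 scale. The submitters' processing notes name HISAT2, featureCounts, DESeq2 and mm10, with no versions or settings. A gene with 0 reads sits at 8.45 in every library, which is the form of the variance-stabilised values the authors' DESeq2 writes. When that formula was inverted, 100% of values above 0 were whole-number multiples of a library-specific step, within a tolerance of 0.05. These recovered counts, divided by the implied size factors, are the normalized counts. The chromatin score per gene body was deposited by the authors, and how it was made is not stated. Other value columns numbered 0.

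The RNA comparison used limma 3.58.1 under R 4.3.3 (eBayes with a mean-variance trend, Benjamini-Hochberg adjustment, threshold 0.05) on the deposited log2 values of genes with a mean of at least 8 normalized counts. The fit was tested on simulated data with the same spread in both conditions. The sgControl libraries here were more scattered than the sgNSD3 libraries, so nothing is read from that test. A fold is the ratio of 2 condition means of normalized counts. A log2 fold and its SE are limma estimates for log2(normalized count + 1), a scale that can understate changes of low genes. The deposited log2 scale, on which calls were made, compresses changes of low genes far more. The difference of Igfbp2 was 0.55 on the deposited scale, against a log2 fold of 1.52. Named genes were the 10 members, the called genes of the IGF axis list (up to 4 per role, with the largest difference) and Insr, the 5 profiles nearest to Igfbp2 with predicted symbols left out, and neighbours of Igfbp2, Igfbp5 and Igf2. The members and lists were chosen with earlier results of these data known. Replicate numbers follow the sample titles. The deposited columns number sgNSD3 replicates 1, 2 and 3 as 3, 1 and 2. The IgG sample titled sgNSD3 carries a source label of sgControl and was put in no group, and no IgG value was used. Promoters of all 10 genes were matched by symbol to 14 starts in RefSeq (GRCm38.p6). Alternatives changed the scale, pseudocount, filter, normalization, variance prior, replicate block and the libraries used. For a single gene, an exact permutation test of 3 against 3 cannot go below p = 0.1 and was not used.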

Additional observations from a re-analysis of the deposited data

How the results depend on the processing

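The numbers of genes called over the whole table were 994 higher and 1176 lower. Leaving out 1 library at a time gave 641 to 993 higher and 707 to 1164 lower, with counts more than 1.5 times smaller without any 1 of the sgNSD3 replicates. The 5 members called higher numbered 5 in each of those fits, 4 with a minimum of 32 normalized counts, which removes Igf2, and 6 under quantile normalization, which adds Igf1r. The 1 member called lower, Igf1, became 0 without the filter, under quantile normalization, with a variance prior without a trend, and with a block by the column number of the deposited table (chosen after seeing the data), and 0 to 1 with 1 library left out. The cause was not tested. Of the IGF axis, 3 were called higher and 7 lower, with 5 higher under quantile normalization, and with 2 to 4 higher and 3 to 8 lower when 1 library was left out. Insr was called under quantile normalization (limma adjusted p = 0.0441) and with a minimum of 32 normalized counts (limma adjusted p = 0.0496). Igf2r turned direction near 0, to 0.00337 under quantile normalization and within -0.0351 to 0.00791 with 1 library left out, the highest without sgNSD3 replicate 1. Igfbp7 ranged from -0.0721 to 0.000541, the highest without sgControl replicate 1.

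A replicate block by the title numbers gave 1119 genes higher and 1333 lower, with 5 and 1 of the members. Deviations of same-numbered libraries correlated at 0.05, 0.02 and -0.01, so the numbers show no pairing. Plagl1 was not called without the filter (limma adjusted p = 0.0646), nor Ctsd under quantile normalization (limma adjusted p = 0.0676). Ranking the chromatin scores among the 12615 gene bodies with tested RNA, or among gene bodies of similar length, moved the percentiles of the members by at most the change of Igfbp4 for H3K27me3, from 55.2 to 69.2. Depth limits Igf2 and Igfbp5 most, for which a count of 0 would allow up to 3 reads.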
